A study of Homo sapiens with 9 samples.

Results

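The regions described here are the 1474 stretches of chromatin whose ATAC-seq signal was lower under both antisense oligonucleotides (ASOs) against the long non-coding RNA NESPR than under the control oligonucleotide. They were chosen from 148797 regions on CPM, the count in a region divided by the total of its library and multiplied by 1000000. A region was eligible with a mean of at least 2 CPM over the 9 libraries, which 72424 regions had. A member had all 6 ASO libraries below all 3 control libraries, and its ASO2 mean and its ASO10 mean were each at most 0.75 times the control mean. The members made up 2.04% of the eligible regions. Because these values chose the members, the differences from the control are given below as a description. Calls of members against the control come from a fit over all regions and are no independent test of them.

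All 9 libraries came from SK-N-BE(2)c, a MYCN-amplified human neuroblastoma cell line, transfected with 100 nM oligonucleotide using lipofectamine and collected after 48 h. The 3 groups of 3 libraries received ASO2, ASO10 (both directed against NESPR) or NCA, the negative control ASO. All groups, the control included, therefore carried an oligonucleotide and the transfection reagent, and a culture with neither was not analysed here. The labels do not say that replicates came from separate cultures, so p-values below measure only the spread between these libraries. Totals ran from 7293565 to 10948569 counts per library. The NESPR transcript itself is not measured by this assay, so the labels could not be checked against the target.

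In ATAC-seq, the transposase Tn5 cuts and tags DNA where it is not wrapped tightly in nucleosomes, so the count in a region reads how accessible that stretch is. Accessible stretches away from genes are often enhancers, which bind transcription factors and can act on genes at a distance, while those at gene starts are promoters, which tend to be open in most cell types. Adrenergic neuroblastoma cells keep sympathetic neuron genes such as HAND2, ISL1 and DBH active, and mesenchymal ones use other factors such as PRRX1. In the line, 9 of 10 adrenergic marker genes had an eligible region within 1 kb of a gene end, TH being without one, as did 4 of 6 mesenchymal markers, PRRX1 and CD44 being without. Of 3 blood markers 2 had one, at means of 3.67 CPM (PTPRC) and 3.89 CPM (SPI1), and ALB, a liver marker, had none. In bulk libraries, fewer cells with an open region and less opening per cell cannot be told apart.

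Most members lay away from promoters, but 77 of them overlapped at least 1 window of the RefSeq promoter table (GRCh38.p14), which runs from 250 bases before to 50 bases after a gene start. The 250 bases before the start are printed for 4 of the 77. They were picked among protein-coding genes with at least 80 of those bases inside the member. Among these, LGI2 had the lowest ratio to the control, and XRCC2, GPBAR1 and ACTN1 had the highest control means. Capitals mark matches, read on both strands, to the motifs searched apart from the E-box (CANNTG), whose short and common letters are left in lower case. LGI2 encodes a secreted protein of the leucine-rich LGI family, XRCC2 a DNA repair protein, GPBAR1 a bile acid receptor and ACTN1 an actin-bundling alpha-actinin.
LGI2 (minus strand, chr4:25030947-25031196): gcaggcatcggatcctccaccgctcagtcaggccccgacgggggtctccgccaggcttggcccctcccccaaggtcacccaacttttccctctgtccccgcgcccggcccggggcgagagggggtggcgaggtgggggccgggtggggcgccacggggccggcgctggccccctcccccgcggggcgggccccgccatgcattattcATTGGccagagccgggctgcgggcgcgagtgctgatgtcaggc
XRCC2 (minus strand, chr7:152676142-152676391): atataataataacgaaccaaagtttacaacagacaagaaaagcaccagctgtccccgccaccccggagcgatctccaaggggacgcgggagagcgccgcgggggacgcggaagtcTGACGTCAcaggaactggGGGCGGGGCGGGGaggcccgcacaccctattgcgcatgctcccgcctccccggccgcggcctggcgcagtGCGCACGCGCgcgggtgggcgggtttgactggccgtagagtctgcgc
GPBAR1 (plus strand, chr2:218259246-218259495): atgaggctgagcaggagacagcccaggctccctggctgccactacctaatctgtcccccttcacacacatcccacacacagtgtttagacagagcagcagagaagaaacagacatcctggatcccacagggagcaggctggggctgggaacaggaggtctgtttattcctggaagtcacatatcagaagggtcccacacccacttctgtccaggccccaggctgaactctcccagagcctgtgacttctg
ACTN1 (minus strand, chr14:68937952-68938201): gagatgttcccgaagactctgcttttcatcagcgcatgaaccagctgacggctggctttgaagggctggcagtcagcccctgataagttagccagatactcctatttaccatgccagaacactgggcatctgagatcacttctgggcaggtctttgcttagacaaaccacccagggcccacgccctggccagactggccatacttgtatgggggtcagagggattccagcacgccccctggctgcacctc
The XRCC2 window held a CRE match (TGACGTCA), overlapping SP/KLF matches (GGGCGGGG) and an NRF1 match (GCGCA and GCGC with any base between). The printed bases at GPBAR1 and ACTN1 held no match to the motifs that are marked. The reverse complement of CCAAT in the LGI2 window lay outside the member, which covered 102 of the printed bases, whereas the members at the other 3 genes covered all 250.

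The rule chose these promoters as lower, and all kept signal under the ASOs. None of them was among the members called lower under both ASOs, which are given below. At XRCC2 the NCA libraries read 25.5, 24.5 and 27 CPM, the ASO2 libraries 18.5, 15.7 and 18.4 CPM and the ASO10 libraries 22.8, 18.8 and 13.4 CPM. The group means were 25.7 ± 1.22, 17.5 ± 1.63 and 18.3 ± 4.74 CPM (SD, n = 3 each). The highest ASO library stood just under the lowest NCA library. At GPBAR1 the means were 19.6 ± 1.07 CPM under NCA, 12.9 ± 1.20 under ASO2 and 14.1 ± 2.77 under ASO10. At ACTN1 they were 19.3 ± 2.78, 13.7 ± 1.98 and 13.8 ± 2.27 CPM. The member at LGI2 was weak throughout, at 3.62 ± 0.988, 1.30 ± 0.417 and 1.47 ± 0.835 CPM, and its ASO libraries held 5 to 20 counts each. Without signal under the ASOs this member would have missed the minimum mean CPM.

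Over all 1474 members the median NCA mean was 5.35 CPM (range 2.66 to 47.9), and the median was 3.21 CPM under ASO2 and 3.25 CPM under ASO10. The ratio of the mean of the 6 ASO libraries to the NCA mean had a median of 0.608 and ran from 0.333 to 0.744. The name "lost" is thus too strong for the set as chosen. At or below a ratio of 0.5 were 208 members, and 99 had both ASO means at or below 0.5. No member had an ASO mean under 0.998 CPM. The rule partly sets these values, since a weak region without signal under the ASOs would miss the minimum mean CPM over all libraries. They therefore cannot show how many weak regions closed fully. The ASO2 mean was the lower one in 777 members and the ASO10 mean in 697. Members took up 1.02% to 1.05% of the counts of each NCA library and 0.636% to 0.655% of those of each ASO library.

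**Figure D1:**
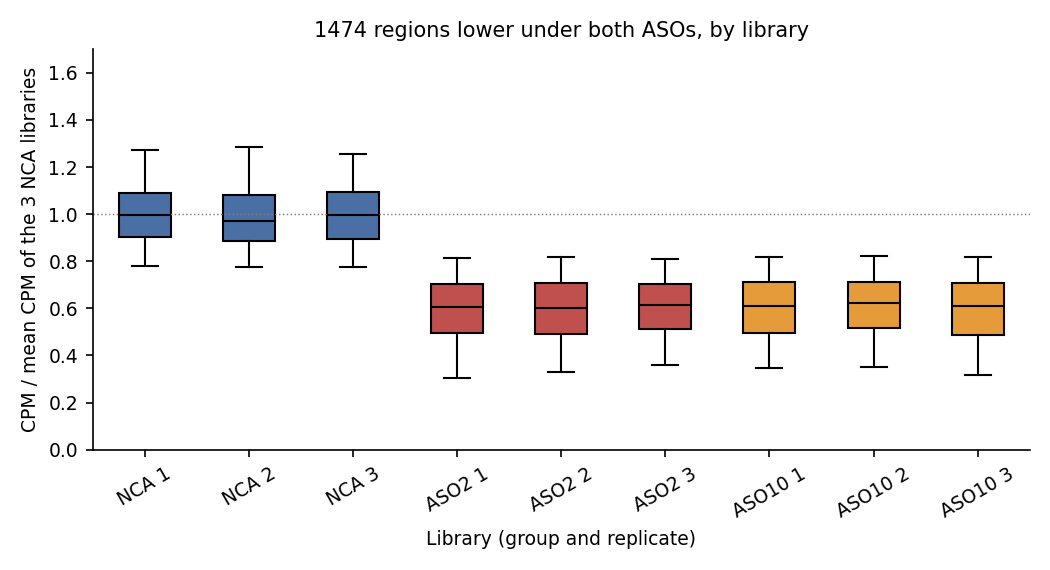
CPM of the 1474 members in each of the 9 libraries, divided by the mean of the 3 NCA libraries (vertical axis). Boxes span the quartiles with the median as a line and whiskers run from the 5th to the 95th percentile. The 6 ASO medians lie between 0.600 and 0.622 and the NCA medians between 0.972 and 0.995, a separation that the choice of members sets.

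The gap between the groups was narrow in most members. The lowest NCA library exceeded the highest ASO library by a median factor of 1.11, by less than 1.1 in 694 members, and by at least 1.5 in 33. Counts were modest: the median member held 43 to 48 counts in an NCA library and 24 to 36 in an ASO library. No single library set the boundary, since NCA replicates 1, 2 and 3 were the lowest control in 448, 557 and 469 members, and each ASO library was the highest of its kind in 237 to 257. All 6 ASO libraries lay below all 3 NCA libraries in 3.22% of eligible regions (2334), and the opposite order held in 2945 regions. Under the same rule in the opposite direction 2052 regions were found.

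Since the rule used every library, each was left out in turn, and its own level was read in the regions that the other 8 chose. The libraries it was set against took part in that choice, which picked regions where NCA libraries read high and ASO libraries low. Part of the separation therefore comes from the choice itself, eligible regions do not give the level to be had with no change, and the values are a description only. An ASO library left out in this way lay below all 3 NCA libraries in 79.1% to 82.9% of the 1769 to 1842 regions chosen, against 27.6% to 30.1% of eligible regions. Its median ratio to the NCA mean was 0.653 to 0.677, while the libraries of its group that took part in the choice stood at 0.602 to 0.608. Left-out NCA libraries were separated in fewer of the regions. Replicates 1, 2 and 3 lay above all 6 ASO libraries in 52.1%, 47.8% and 49.2% of the 2591, 2881 and 2728 regions chosen without them, against 16.9%, 15% and 16.4% of eligible regions. Their median ratio to the ASO mean was 1.30, 1.26 and 1.28, where the NCA libraries that took part stood at 1.66, 1.65 and 1.68.

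**Figure D2:**
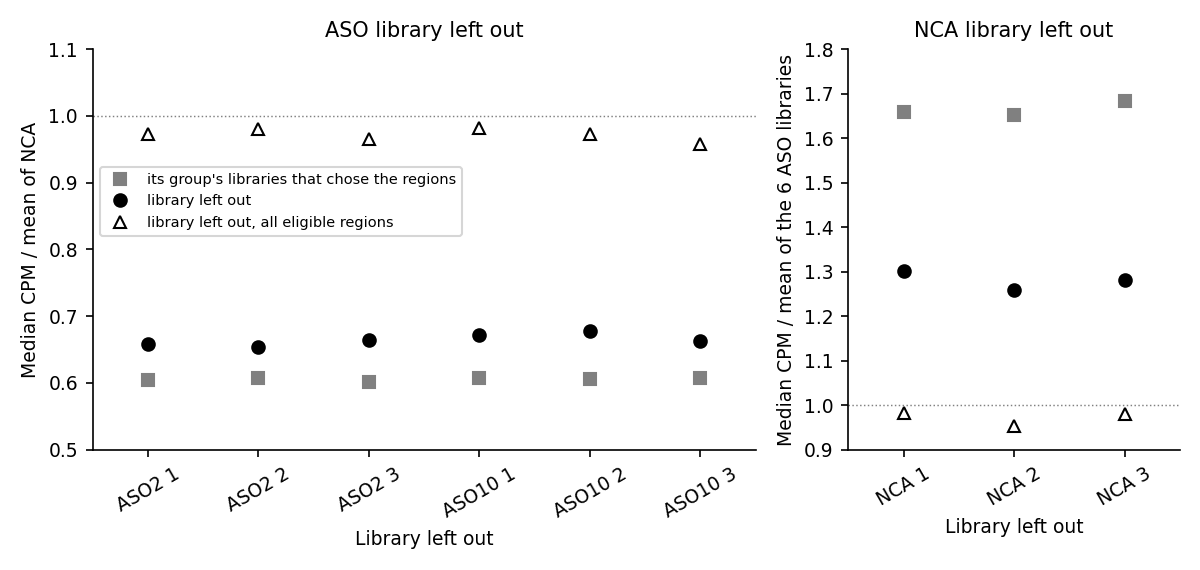
Median CPM of a library left out of the choice (black circles), in regions chosen by the other 8 libraries, as a ratio to the NCA mean (left) or the mean of the 6 ASO libraries (right). Grey squares are the libraries of the same group that took part in the choice and triangles the left-out library over all eligible regions. Left-out ASO libraries sit at 0.653 to 0.677 and left-out NCA libraries at 1.26 to 1.30. The denominators are means of libraries that took part in the choice, so part of each gap from 1 comes from the choice.

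With 1 library left out, the remaining ASO libraries of a member still lay below its remaining NCA libraries. A member could then fail only the minimum mean CPM or the limit on the ratio. Leaving out an NCA library lowers a member's mean CPM wherever that library lies above the member's mean. Of the 1474, 755 (51.2%) also met the rule whichever library was left out, 934 met it without each NCA library in turn, and 1007 without each ASO library in turn. These counts describe how close members lay to the cutoffs and are not read as reliance on 1 library.

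The 10 members with the lowest ratios were weak regions, with NCA means of 3.45 to 6.19 CPM. They lay in or near TBC1D7-LOC100130357, GMPS (a guanine nucleotide synthesis enzyme), TLN2 (a talin that links integrins to actin), ALKBH3 (a nucleic acid demethylase), MECOM (a zinc finger transcription factor), MYOD1, VEPH1, GRB10 (an adaptor of insulin receptor signalling), ADGRL3 (a latrophilin) and OTUD7A (a deubiquitinase). The member 33.2 kb from MYOD1, the master regulator of muscle, lay at chr11:17686046-17686404. It read 5.36, 2.84 and 3.82 CPM under NCA, 2.19, 1.24 and 1.1 CPM under ASO2, and 1.03, 2.11 and 0.869 CPM under ASO10. NCA replicate 2 was closest to the ASO libraries here, at 2.84 CPM against 2.19 CPM in the highest of them. The member inside ALKBH3, at chr11:43916652-43917004, had means of 4.75 ± 1.20, 2.11 ± 0.284 and 1.17 ± 0.616 CPM under NCA, ASO2 and ASO10. The member 16.3 kb from GMPS, at chr3:155960334-155961053, had means of 3.96 ± 0.781, 1.06 ± 0.335 and 1.66 ± 0.296 CPM.

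The 5 members with the highest NCA means were near BBS9, in PLCB4 and PRIMA1, and near TENT4A and CLXN. BBS9 is a subunit of the BBSome of cilia, PLCB4 a phospholipase C, PRIMA1 the membrane anchor of acetylcholinesterase and TENT4A a poly(A) polymerase. The strongest, 86.4 kb from BBS9 at chr7:33722154-33723034, read 51.2, 40.3 and 52.2 CPM under NCA, 34.3, 40.2 and 28.3 CPM under ASO2, and 27.4, 27.7 and 30.3 CPM under ASO10. Its ASO2 replicate 2 all but met NCA replicate 2, and the other ASO libraries were well below. The member in PLCB4, at chr20:9235294-9236957, was cleanly separated, at 36.5 to 47.3 CPM under NCA, 25.9 to 28.2 under ASO2 and 28.7 to 31.6 under ASO10. Only 41 members had an NCA mean of at least 20 CPM, and 675 were under 5 CPM.

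In the fit across all 119417 regions that passed the low-count filter (edgeR quasi-likelihood test, Benjamini-Hochberg adjusted p under 0.05), 289 members (19.6%) were called lower under ASO2 and 111 (7.53%) under ASO10. Over all tested regions the shares called lower were 0.808% and 0.21%. The rule used these contrasts, so nothing is read from the difference in shares. With loess offsets that level each library's trend with abundance, ASO10 calls over all regions were 681 higher and 469 lower, against 1046 and 251. Those for ASO2 were 5314 higher and 1537 lower, against 5722 and 965. Member calls were then 423 under ASO2 and 142 under ASO10, so lower calls rose over all regions as well as in the members. The median log2 fold change over the members was -0.70 under ASO2 and -0.68 under ASO10, beside -0.0074 and 0.012 over eligible regions. Both contrasts share the NCA libraries.

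Called under both ASOs were 67 members, against 0.0586% of all tested regions (70). Another 222 were called under ASO2 alone, 44 under ASO10 alone and 1141 under neither. The 67 were stronger regions, with a median NCA mean of 15.8 CPM and ratios of 0.345 to 0.720. Weak regions are called less easily, which bears on that level. Of the 67, 34 lay inside a protein-coding gene, and 26 (38.8%) were more than 100 kb from any protein-coding gene end. The shares over all placed members were 49.6% and 25.2%, and over eligible regions 55.1% and 27.1%. Within 1 kb of an end lay 2, in VDAC1 and at CYP7B1, where all members had 8.23% and eligible regions 18.1%. VDAC1 is the main channel of the outer mitochondrial membrane and CYP7B1 an oxysterol hydroxylase. The regions named in the next paragraph were chosen after their values were seen, as those called under both ASOs with the smallest of the larger adjusted p.

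The first was a region far from genes, 327 kb from HTR1E, a serotonin receptor gene, at chr6:86609541-86610464. It read 24.9, 20.4 and 25.5 CPM under NCA, 7.13, 12.5 and 10.9 CPM under ASO2, and 9.25, 9.89 and 7.57 CPM under ASO10. Every ASO library was well below the lowest NCA library. A region 28.4 kb from ETS1, which encodes the founding ETS transcription factor, at chr11:128616008-128616524, read 22.0, 15.4 and 15.1 CPM under NCA, 9.46, 7.11 and 7.49 under ASO2, and 8.91, 5.33 and 8.32 under ASO10. NCA replicate 1 was the high library there, and the other NCA libraries were still well above the ASO libraries. A region inside GPC5, a glypican gene, at chr13:91620508-91621639, had means of 15.6 ± 2.56, 6.84 ± 2.18 and 6.97 ± 0.954 CPM under NCA, ASO2 and ASO10. One inside AFAP1, which encodes an actin filament protein, at chr4:7894666-7895328, had means of 13.9 ± 2.15, 6.65 ± 1.85 and 6.54 ± 1.04 CPM. A pair of regions near ARHGAP6, on the X chromosome, were both members, at 18.2 ± 3.0, 10.0 ± 1.58 and 8.41 ± 1.61 CPM for the one 21.0 kb away (chrX:11686936-11687864). The other, inside the gene, was among the members closest to the 0.75 limit.

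A further region called under both ASOs contained a microRNA hairpin, MIR4289, and lay 161 kb from the nearest protein-coding gene, NXNL2. MicroRNAs pair with target transcripts mainly through the seed, bases 2 to 8 of the mature strand, here in capitals (RefSeq, GRCh38.p14). The sequence is shown because this was the one member with a listed hairpin inside it; the hairpins of MIR4696 and MIR6511B2 lay 672 and 254 bases from other members.
hsa-miR-4289: gCAUUGUGcagggcuauca
The region, chr9:88745348-88745996, read 11.2, 12.5 and 13.3 CPM under NCA, 4.11, 5.46 and 4.48 CPM under ASO2, and 6.51, 7.45 and 5.21 CPM under ASO10. The lowest NCA library was well above the highest ASO library. The microRNA itself was not measured.

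Relative to genes, members sat more often at middle distances than eligible regions did. Of the 1470 members on assembled chromosomes (4 were on unplaced sequence), 694 (47.2%) were 10 to 100 kb from the nearest end of a protein-coding gene, against 38.8% of eligible regions. Another 285 (19.4%) were 1 to 10 kb away, against 16.0%, and 370 (25.2%) beyond 100 kb, against 27.1%. Within 1 kb of a gene end there were 121, or 8.23% (exact binomial 95% interval 6.88% to 9.76%, counting error only), against 18.1% of eligible regions. Members were fewer among strong regions, so eligible regions were also weighted to the abundance of the members. The weighted shares were 10.7% within 1 kb, 17.3% at 1 to 10 kb, 42.6% at 10 to 100 kb and 29.4% beyond. The 2050 placed regions of the opposite rule were spread differently, with 2.05% within 1 kb and 54.6% beyond 100 kb.

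**Figure D3:**
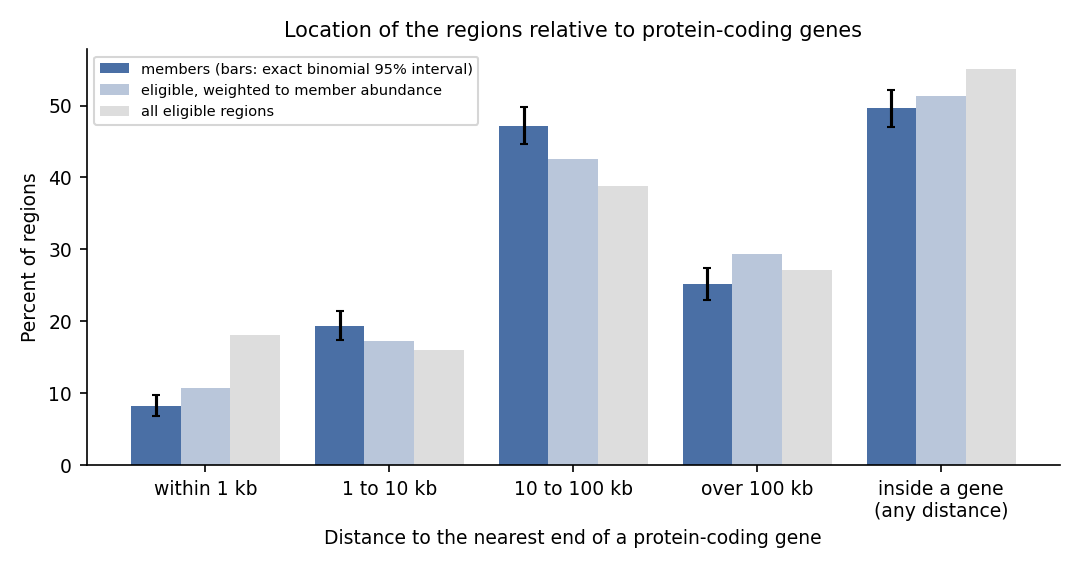
Share of regions (vertical axis, percent) by distance to the nearest end of a protein-coding gene, and inside such a gene, for the 1470 placed members, for eligible regions weighted to the members' abundance, and for all eligible regions. Bars on the members are exact binomial 95% intervals. Members at a gene end stand at 8.23% beside 10.7% and 18.1%, and members at 10 to 100 kb at 47.2% beside 42.6% and 38.8%.

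Inside a protein-coding gene lay 729 members (49.6%), against 55.1% of eligible regions and 51.3% of the weighted ones. A long non-coding RNA gene was overlapped by 237 (16.1% against 17.7%), and 578 (39.3% against 34.2%) overlapped neither kind. Some were remote: 31 members lay more than 1000 kb from any protein-coding gene. Members were a median of 598 bases wide, eligible regions 704 bases and weighted eligible regions 632 bases. By abundance, members were 2.47% of eligible regions at a mean of 2 to 3 CPM, 2.59% at 3 to 5, 2.48% at 5 to 10, 1.11% at 10 to 20 and 0.228% at 20 CPM or more. The limit on the ratio bears on this, since the share with all ASO libraries below all NCA libraries was 2.60%, 3.12%, 4.15%, 3.96% and 2.1% in the same bins.

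The 10 members within 1 kb of a gene end with the lowest ratios were at LGI2, ADRB3, ST14, PARD3, IL34, SSTR4, S100A10, RNF212, SYT6 and LARS2. ADRB3 encodes the beta-3 adrenergic receptor, which responds to noradrenaline, and SSTR4 a somatostatin receptor. The gene table gives no strand, so an end may be a start or a stop. The member 0.504 kb from ADRB3, chr8:37961983-37962486, read 6.0, 4.69 and 8.32 CPM under NCA, 1.23, 2.99 and 1.92 CPM under ASO2, and 3.31, 3.11 and 2.36 CPM under ASO10. NCA replicate 2 was the lowest control library, and the order of the groups is set by the rule. At SSTR4 the means were 4.34 ± 1.5, 1.6 ± 0.316 and 2.34 ± 0.526 CPM, and in PARD3, a cell polarity gene, 4.12 ± 0.311, 1.76 ± 0.727 and 1.84 ± 0.523 CPM. All 10 were weak, with NCA means of 3.22 to 6.33 CPM.

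Motifs that are common in GC-rich promoters stood in a smaller share of the promoter windows at members than of those at eligible regions. The 77 members overlapped 95 windows, and the 11419 eligible regions with a window overlapped 16978 of the 35116 windows searched, each 300 bases long. CCAAT, the NFY motif, stood in 19 of the 95 windows at members, 35% at eligible regions and 34.6% of all. The ETS motif (CCGGAAG) stood in 7.37%, 17.9% and 10.3%, the NRF1 motif in 3.16%, 11.2% and 5.78%, and the SP/KLF motif in 27.4%, 37.9% and 22.8%. The AP-1 motif (TGANTCA) stood in 6.32%, 4.30% and 7.71%, and the GATA motif (AGATAA) in 8.42%, 4.87% and 10.3%. Shares of the TEAD (GGAATG), E-box (CANNTG), CRE and homeodomain (TAATTA) motifs at members were 8.42%, 68.4%, 1.05% and 2.11%, beside 10.5%, 59.1%, 3.22% and 1.96% at eligible regions. The median GC content was 63.3% at members, 66.0% at eligible regions and 58.7% over all windows. Windows of neighbouring starts overlap, strong promoters are rare among members, and their part in these shares was not tested.

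By chromosome, and leaving aside Y with 1 member in 136 eligible regions, the share of eligible regions that were members ran from 0.768% on chromosome 19 to 2.91% on chromosome 11. Chromosome 11 held 94 members, chromosome 7 held 132 (2.80%), chromosome 8 held 105 (2.74%) and chromosome 10 held 76 (2.66%), beside 2.04% over the genome. Chromosome 19, which is dense in genes, held 18 of 2343 (interval 0.456% to 1.21%, counting error only). Its eligible regions had the highest median abundance of the chromosomes plotted, 7.14 CPM. Chromosomes 13 and 22 stood at 1.36% and 1.38%. Regions of the opposite rule made up 0.811%, 4.76% and 1.38% of eligible regions on chromosomes 19, 13 and 22, beside 2.83% over the genome. Chromosome 1 held the most members, 192, at a share of 2.08%.

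**Figure D4:**
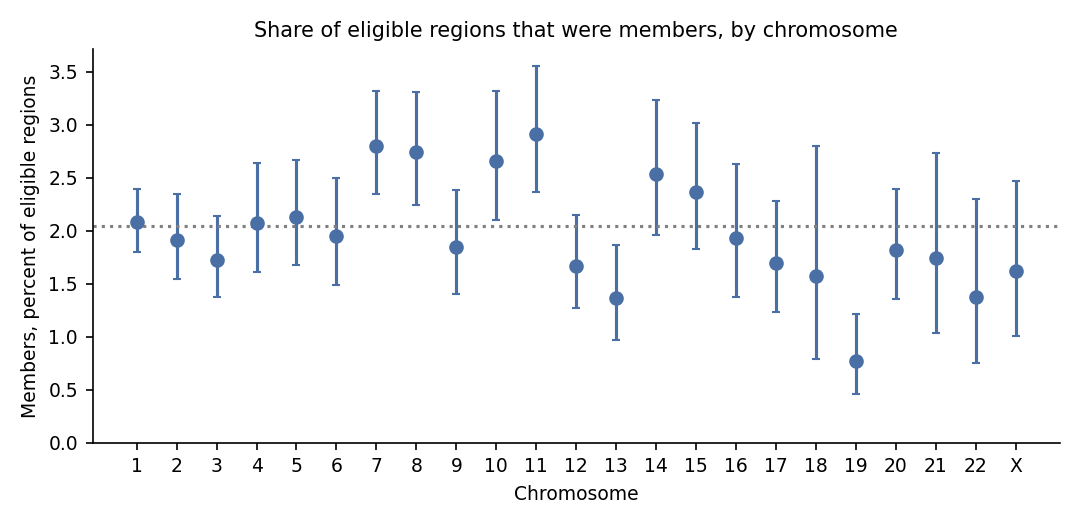
Members as a percentage of eligible regions on each chromosome (vertical axis), with exact binomial 95% intervals and the genome-wide share of 2.04% as a dotted line. Chromosomes 7, 8, 10 and 11 stand above the line with their intervals, and chromosomes 13 and 19 below it. The intervals cover counting error only, with no allowance for the number of chromosomes, and no test was made.

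Members were spread over many genes. A protein-coding gene within 100 kb was found for 1216 members, 2.1% of the 57981 eligible regions with such a gene, and the nearest genes numbered 1098 of 15910. Of these genes 997 had 1 member, 89 had 2 and 12 had 3 or more. TENM4 had the most, 6 of its 49 eligible regions, followed by ANTXRL (4 of 17), AUTS2 (4 of 80), SRSF6 (3 of 7), DCPS (3 of 8), SYNE3 (3 of 13), NCOA7 (3 of 17), DYNC1I1 (3 of 18), SND1 (3 of 25) and TLN2 (3 of 28). Within 100 kb of another member lay 272 members and within 10 kb 45.

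TENM4 encodes a teneurin, a transmembrane protein of neuron adhesion, and spans chr11:78652829-79441030. Of its members 5 lay inside the gene and 1 lay 52.5 kb outside it. The strongest, chr11:78981079-78982900, read 32.7, 28.1 and 30.5 CPM under NCA, 14.3, 14.9 and 15.4 CPM under ASO2, and 22.4, 22.2 and 20.6 CPM under ASO10. The 3 groups did not overlap, with ASO10 between ASO2 and NCA. The next, chr11:79119606-79120513, had means of 15.8 ± 2.52, 9.53 ± 1.79 and 7.86 ± 0.869 CPM under NCA, ASO2 and ASO10, and here ASO10 was the lower one. The member at chr11:79393556-79394126 had 9.50 ± 1.79, 5.64 ± 0.948 and 6.55 ± 0.768 CPM. The other 3 had NCA means of 3.44 to 6.95 CPM. The other 43 eligible regions nearest to TENM4 were mixed: 26 were lower under ASO2, 30 under ASO10 and 19 under both, with median log2 fold changes of -0.14 and -0.18.

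**Figure D5:**
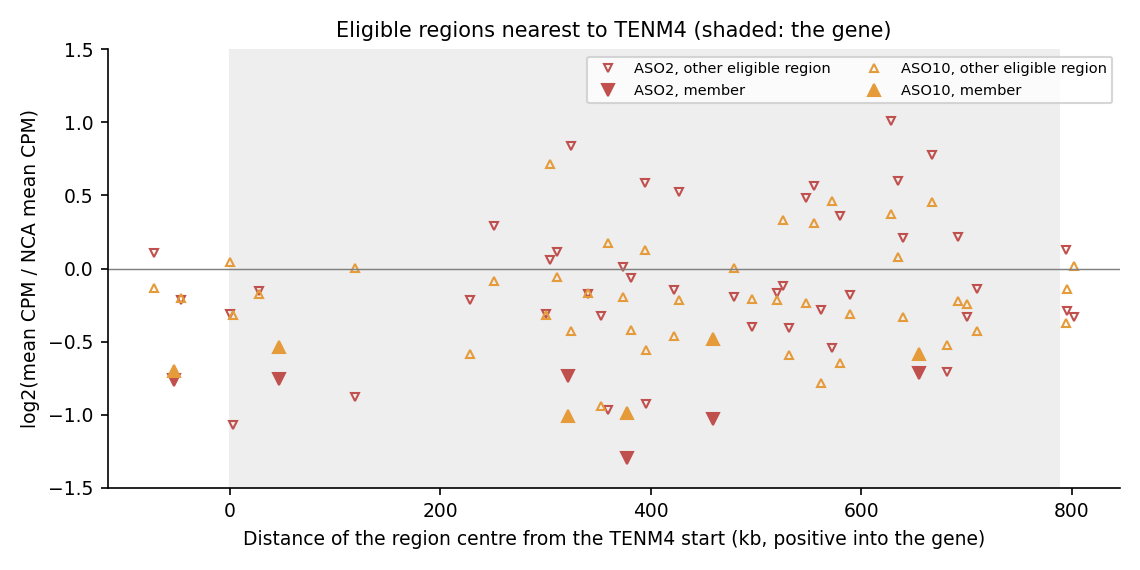
Eligible regions nearest to TENM4 by distance from the gene's start (horizontal axis, kb, the gene shaded) and log2 ratio of the ASO mean to the NCA mean in CPM (vertical axis). Filled triangles are the 6 members and open ones the other 43 regions, pointing down for ASO2 and up for ASO10. Members are interspersed with regions that were equal or higher under an ASO.

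DYNC1I1, a dynein intermediate chain expressed in neurons, held 3 members within its gene body. The strongest, chr7:95840815-95842482, read 32.9, 28.5 and 36.6 CPM under NCA, 19.6, 22.0 and 25.3 under ASO2, and 22.0, 21.2 and 22.1 under ASO10. ASO2 replicate 3 came closest to the lowest NCA library. SND1, a nuclease-domain protein of RNA metabolism, held 3 members, the strongest at chr7:128085006-128085782 with means of 27.2 ± 2.42, 18.4 ± 0.879 and 19.2 ± 1.93 CPM. NCOA7, a nuclear receptor coactivator, held 3, of which chr6:125868746-125869755 had means of 16.4 ± 1.59, 9.03 ± 0.389 and 12.0 ± 0.734 CPM. SYNE3, a nesprin of the outer nuclear membrane, had 3, the strongest, chr14:95497148-95497955, at 8.28 ± 1.37, 4.16 ± 1.37 and 4.67 ± 0.564 CPM.

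Around these genes the other eligible regions did not all follow. Their median log2 fold change under ASO2 and ASO10 was 0.17 and -0.07 at DYNC1I1, 0.26 and 0.04 at NCOA7, 0.11 and -0.08 at AUTS2, -0.27 and -0.18 at SND1, -0.22 and -0.09 at SRSF6, and -0.09 and -0.19 at SYNE3. The sign differed between the ASOs at DYNC1I1 and AUTS2. AUTS2, a regulator of neuron development, had 4 members in its gene body, with NCA means of 3.87 to 10.9 CPM. ANTXRL, an anthrax toxin receptor-like gene, had 4, with NCA means of 3.23 to 18.2 CPM; it lies in a stretch of chromosome 10 with near-identical copies, where reads may be assigned uncertainly.

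Eligible regions that were no members themselves were slightly lower near a member. Within 10 kb of one (1199 regions) the median log2 fold change was -0.056 under ASO2 and -0.061 under ASO10, and 56.1% and 56.2% were lower. At 10 to 100 kb (9363 regions) the medians were -0.052 and -0.016, and over all 70167 non-members 0.0046 and 0.021, with 49.5% and 47.5% lower. The difference was small beside that of the members. Within 5 kb the medians were -0.022 and -0.031. Regions near each other share chromatin and libraries, and no test was made.

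Gene lists of neuroblastoma states, adhesion, neuron wiring, signalling and stress were read against the share of 2.1%. The lists were chosen with earlier results of these data known. Members made up 3.40% (16 of 471) of eligible regions within 100 kb of an adhesion or cytoskeleton gene, at 12 genes. The exact binomial interval, 1.95% to 5.46%, includes 2.1%, and regions of the opposite rule were more numerous in the same list, 32 of 471 (6.79%) beside 2.27% over all regions with a gene in reach. Of the 16, 3 were at TLN2, which was known to hold a low region. The others included a member 25.2 kb from ITGB1, the integrin beta-1 subunit, with means of 4.24 ± 1.25, 2.03 ± 0.472 and 1.18 ± 0.537 CPM under NCA, ASO2 and ASO10, and one in CTNNA2, a neuronal alpha-catenin, with 4.46 ± 0.365, 2.30 ± 0.219 and 2.16 ± 0.274 CPM. The list as a whole was not lower, with median log2 fold changes of 0.09 under ASO2 and 0.06 under ASO10, beside -0.01 and 0.01 over all regions with a gene in reach.

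The adrenergic factors had 4 members among 261 regions (1.53%), near MYCN, EYA1, DDC and KLF13. MYCN is the amplified oncogene of this line, and DDC makes dopamine from L-DOPA. The member 97.2 kb from MYCN, chr2:15842698-15843395, read 17.7, 14.2 and 17.4 CPM under NCA, 8.23, 10.8 and 8.95 CPM under ASO2, and 7.65, 8.22 and 10.8 CPM under ASO10. That all 6 ASO libraries lay below the lowest NCA library is a condition of the rule. The region was called under both ASOs, in contrasts that the rule used. Its level was far below that of the region at an end of MYCN, which had a mean of 5059 CPM. The member 2.19 kb from DDC had means of 8.67 ± 1.56, 5.79 ± 0.700 and 5.97 ± 0.932 CPM. Mesenchymal factors had 1 member in 190 regions (0.526%), 81.8 kb from TBX18, with means of 7.34 ± 1.4, 5.41 ± 0.0665 and 3.43 ± 0.677 CPM. The median log2 fold changes over the lists were -0.04 and -0.00051 for adrenergic and 0.07 and 0.03 for mesenchymal factors.

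Among signalling lists, Wnt genes had 5 members in 183 regions (2.73%), at TCF7L2, WNT11, DKK3, APC and ROR2. TCF7L2 is a transcription factor at the end of the pathway, WNT11 a ligand, ROR2 a receptor, and APC part of the complex that degrades beta-catenin. The member in DKK3, chr11:11968444-11969309, read 8.17, 8.64 and 7.19 CPM under NCA, 4.94, 4.53 and 4.57 under ASO2, and 4.57, 4.11 and 5.21 under ASO10. The ASO groups stood at one level. The TGF-beta and BMP list had 1 in 204 (0.490%), the one in MECOM. Axon guidance genes had 6 in 552 (1.09%), led by SEMA6D, SLIT3 and PLXNA2, and ion channel and synapse genes had 8 in 606 (1.32%), among them DLG2, CACNA1A and NRXN3. Regions of the opposite rule numbered 38 (6.88%) and 37 (6.11%) in these lists. Both had positive medians, 0.16 and 0.15 under ASO2 and 0.06 and 0.07 under ASO10.

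The stress lists were small. The integrated stress response, which raises amino acid synthesis genes, had 2 members in 82 regions (2.44%), 78.3 kb from PSAT1 and 15.7 kb from ASNS, enzymes of serine and asparagine synthesis. The member near PSAT1 had means of 5.88 ± 0.861, 2.56 ± 0.929 and 3.52 ± 0.812 CPM and the one near ASNS 5.99 ± 0.718, 4.12 ± 0.780 and 3.15 ± 0.235 CPM. The list also held 2 regions of the opposite rule, and its median log2 fold changes were -0.012 under ASO2 and 0.19 under ASO10. Targets of p53 had 1 in 55 (1.82%), in DDB2, a DNA repair gene. The interferon response had 0 in 22, with an exact upper bound of 15.4%.

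Calls over these lists were more often higher than lower under ASO2, as they were over all regions with a gene in reach, where 3580 of 57981 were called higher and 708 lower. Over all tested regions 4.79% were called higher under ASO2 and 0.876% under ASO10. Axon guidance genes had 99 regions higher and 1 lower under ASO2, ion channel and synapse genes 95 and 4, adhesion and cytoskeleton genes 67 and 8, and adrenergic factors 23 and 5. TGF-beta and BMP genes and Wnt genes each had 16 higher and 4 lower, mesenchymal factors 7 and 3, the integrated stress response 5 and 1, p53 targets 2 and 1, and the interferon response 1 and 0. Under ASO10 there were 745 higher and 192 lower over all regions with a gene in reach. Adhesion and cytoskeleton genes had 11 higher and 3 lower, axon guidance genes 10 and 3, ion channel and synapse genes 9 and 0, and the integrated stress response 6 and 0. Adrenergic factors had 3 higher and 5 lower, the one list with more regions lower than higher within 100 kb. The other 5 lists had 0 to 3 in each direction. With adrenergic genes taken within 50 kb or 500 kb, the directions were equal, at 3 and 3 and at 5 and 5.

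The difference between ASO2 and ASO10 was not part of the rule, so it was tested for the members. Of the 1474, 1 was called by edgeR's quasi-likelihood test, and it was lower under ASO2. Over all tested regions 2.54% were called higher and 0.682% lower under ASO2 than under ASO10, together 3.23% (3853), and 5.04% of eligible ones were called. It was the strongest TENM4 region, lower under ASO2 than under ASO10, with a log2 difference of -0.56, SE 0.15 and an adjusted p of 0.00945 by edgeR. It was not called without ASO10 replicate 1 (-0.54), without ASO10 replicate 2 (-0.55) or without ASO2 replicate 1 (-0.53). At an unadjusted p under 0.05 there were 11 members higher and 17 lower under ASO2, and by sign 666 were higher and 808 lower. Members had to be low under both ASOs, which limits how far the ASOs could differ, so the low share is not read as likeness. At the region 327 kb from HTR1E the log2 difference was 0.19 (SE 0.18), and at the region near ETS1 0.07 (SE 0.20).

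At the edge of the rule, the members with a mean closest to the 0.75 limit were in PPP2R2C, ROPN1L and ARHGAP6, with NCA, ASO2 and ASO10 means of 5.23, 3.92 and 3.02 CPM, 10.3, 6.54 and 7.73 CPM, and 5.86, 4.34 and 4.39 CPM. Just outside it were regions near ALYREF (7.03, 3.87 and 5.27 CPM), near EMC2 (6.93, 5.20 and 4.09 CPM) and in XKR5 (19.9, 14.0 and 14.9 CPM). The values on both sides were alike. Of the 2334 regions with all ASO libraries below all NCA libraries, 241 failed the limit for ASO2 alone, 272 for ASO10 alone and 347 for both.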

How the data were processed

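The labels' protocols describe tagmentation of genomic DNA by Tn5 and paired-end sequencing. What the authors deposited are raw counts per region for all 9 libraries over 1 shared region set. The submitters' processing notes name FastQC, Bowtie2 2.2.6, SAMtools, MACS2 2.1.2, DESeq2 1.42.0, hg38 and GRCh38, without roles. Filters, region merging, the unit counted and whether starts count from 0 or 1 are not given in the sources used here.

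CPM of the column totals served the rule. Log2 fold changes and calls come from edgeR 4.0.16 (R 4.3.3; filterByExpr, TMM, robust quasi-likelihood fit, all 9 libraries, a term per group; Benjamini-Hochberg over 119417 regions, threshold 0.05). The members, gene lists, motifs, alternatives and the rule for naming regions (ratio, level, call between the ASOs, gene ends, genes with several members, lists, edge of the limit) were chosen with earlier results of these data known. Genes came from a RefSeq table (GRCh38.p14) without strand, and the promoter table is not complete. Intervals are exact binomial (scipy 1.17.1). Within each group no library copied another: the variance between replicates was 2.61 to 3.30 times that of counting noise (chi-square over its degrees of freedom). In a simulation on 113389 regions, in which 200 were set to differ by 1 log2 unit between ASO2 and ASO10, 189 of these passed the low-count filter and 22.2% of the 189 were recovered (80% of the 40 that exceeded 3 log2 CPM), and none of 42 calls was false. Alternatives were other scalings, DESeq2 1.42.0, filters, limits, distances, a replicate block and leaving out each library. Python 3.11.15, pandas 2.3.3 and matplotlib 3.10.9 made tables and figures.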

Additional observations from a re-analysis of the deposited data

Results flagged for a closer look

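The region in TENM4 at chr11:78981079-78982900 drew attention because ASO2 and ASO10, which both lay below NCA there, also differed from each other, with a log2 difference of -0.56 for ASO2 less ASO10 (SE 0.15, adjusted p of 0.00945 by edgeR). The 3 ASO2 libraries were below the 3 ASO10 libraries. It was called in 15 of 18 settings, the exceptions being the fits without ASO10 replicate 1, without ASO10 replicate 2 and without ASO2 replicate 1.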

How the results depend on the processing

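The number of members was 2370 with a mean of at least 1 CPM, 722 with at least 4 CPM, 852 with a ratio of at most 0.67 and 4881 with libraries allowed to overlap. It was 1769 to 2881 when 1 library was left out, and 1266, 1256, 1851 and 1420 with TMM-scaled totals, DESeq2 size factors, a ratio of at most 0.80 and loess-adjusted CPM, the last added after seeing the data. The loess-adjusted set shared 1190 regions with the members (80.7% of the members, 83.8% of its own). Leaving out 1 library gave 4110 to 6457 calls for ASO2 against NCA (fewest without ASO2 replicate 2), 447 to 1417 for ASO10 against NCA (fewest without ASO10 replicate 1) and 2089 to 3981 for ASO2 against ASO10 (fewest without ASO10 replicate 3). Members called lower then numbered 155 to 274 under ASO2 and 40 to 124 under ASO10. Over all tested regions the calls lower in these fits numbered 513 to 855 and 80 to 282. With at least 10 counts in every library, 200 of 1260 members were called lower under ASO10, beside 541 of all 65474 regions tested.

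Members called between the ASOs numbered 0 to 2 over the fits without 1 library. They numbered 2 with loess offsets, where the region near BBS9 joined, and 2 with at least 10 counts or with only the groups compared, where a region near IL17B joined. Without ASO2 replicate 3 a region near FER joined. The TENM4 region was at -0.54, -0.55 and -0.53 in the 3 fits where it was not called (edgeR adjusted p = 0.0604, 0.0531 and 0.0662). With the limits at 0.5 kb and 2 kb, 5.78% and 11% of members were at a gene end (eligible 16.7% and 20.6%), and 6.46% at a ratio of at most 0.67. Near members the medians were -0.022 (ASO2) and -0.031 (ASO10) within 5 kb, and -0.026 (ASO10) within 50 kb. No mesenchymal region (0%) was a member within 50 kb of its gene.

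No pairing by replicate number was seen: deviations from the group means correlated at -0.056 to 0.020 between libraries of the same number and at -0.030 to 0.054 between others. These values cannot show whether libraries of the same number were prepared together. With a replicate block, 6310, 983 and 3438 regions were called for ASO2 against NCA, ASO10 against NCA and ASO2 against ASO10, and 1 member for the last. The rule fixes the sign of a member's fold change against NCA, so its sign under the alternatives shows nothing about stability. In 2944 pairs of a contrast and an alternative for the 88 named members, 17 values moved by more than the standard error of the reported value. Depth limits weak regions most: the median ASO library held 24 to 36 counts in a member.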
